A study of Mus musculus with 20 samples.

Results

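H3K27ac ChIP-seq peaks were compared between the medial and the lateral nasal plate of the mouse embryo at e11.5. The comparison used 1 peak list from each plate, and every region with a peak in at least 1 of them was a member. Overlapping peaks of both lists were merged, which gave 27162 regions, against 42346 when all 10 H3K27ac lists of the study were merged together. Tissue was freshly dissected from the embryonic face and holds mixed cells, both plates are labelled wild type with no treatment, and the labels used here give neither the strain nor the number of embryos pooled. The medial plate had 20492 peaks and the lateral plate 21689. There was no replicate of either plate, so no difference below was set against a spread between samples and no p-value is given. The number of reads behind each list is unknown, and depth and tissue cannot be told apart where 1 list simply holds more or wider peaks. Shares carry exact Clopper-Pearson 95% intervals, which cover counting error only.

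The medial and lateral nasal swellings flank each nasal pit. They fuse with each other and with the maxillary swelling to close the upper lip and primary palate, the medial ones also form the middle of the nose and lip, and the lateral ones form the sides of the nose. Their mesenchyme comes largely from the neural crest and is covered by surface ectoderm that includes the olfactory placode. H3K27ac marks active promoters and enhancers, and wide stretches of it are often found at genes that set cell identity.

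Distal regions with a peak in 1 plate only were found at patterning genes of the face on both sides. Stretches of them are shown here as examples. At Pou3f3, Foxf1, Pax7 and Zfhx3 the promoter region described below differed between the plates by more bp than the distal region shown. For each gene, the one-sided distal region with the highest −log10 q, a measure of how surely a peak stands above the input, was taken, passing over regions without 150 bases free of exons and repeats. Within it the 150 bases with the most matches to 3 short consensus sequences were chosen, ties taken nearest the middle. Capitals mark TAATTA (a homeodomain core), TAATCC (a bicoid-type homeodomain sequence) and CATCTG (a Twist-type E-box), searched on both strands. All are plus-strand sequence of the mm10 genome, read from the RefSeq copy of GRCm38.p6. The first 4 had a peak in the medial plate only.
Pou3f3, chr1:42637416-42637565: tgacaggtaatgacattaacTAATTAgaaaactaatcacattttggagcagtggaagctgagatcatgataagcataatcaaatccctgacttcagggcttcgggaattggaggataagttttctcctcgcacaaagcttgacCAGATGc
Sfrp1, chr8:23424322-23424471: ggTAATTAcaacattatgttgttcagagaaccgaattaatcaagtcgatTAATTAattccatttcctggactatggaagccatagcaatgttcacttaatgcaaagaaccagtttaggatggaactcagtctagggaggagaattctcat
Foxf1, chr8:121063242-121063391: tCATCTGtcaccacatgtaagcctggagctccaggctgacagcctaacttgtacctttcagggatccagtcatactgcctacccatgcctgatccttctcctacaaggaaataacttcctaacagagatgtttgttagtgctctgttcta
Foxd1, chr13:98392059-98392208: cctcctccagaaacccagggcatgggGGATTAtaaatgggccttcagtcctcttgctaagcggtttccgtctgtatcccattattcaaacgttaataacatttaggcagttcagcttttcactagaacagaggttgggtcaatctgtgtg
The next 4 had a peak in the lateral plate only.
Fgf10, chr13:118732382-118732531: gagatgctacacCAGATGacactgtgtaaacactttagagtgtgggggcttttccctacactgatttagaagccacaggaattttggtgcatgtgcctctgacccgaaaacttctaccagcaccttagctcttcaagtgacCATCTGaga
Pax7, chr4:139818381-139818530: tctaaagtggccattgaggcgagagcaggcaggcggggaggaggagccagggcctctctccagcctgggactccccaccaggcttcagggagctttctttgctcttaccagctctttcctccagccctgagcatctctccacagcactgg
Pax3, chr1:78202463-78202612: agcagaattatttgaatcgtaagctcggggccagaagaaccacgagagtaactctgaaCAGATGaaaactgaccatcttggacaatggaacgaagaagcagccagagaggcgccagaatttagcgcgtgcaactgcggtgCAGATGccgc
Zfhx3, chr8:107947047-107947196: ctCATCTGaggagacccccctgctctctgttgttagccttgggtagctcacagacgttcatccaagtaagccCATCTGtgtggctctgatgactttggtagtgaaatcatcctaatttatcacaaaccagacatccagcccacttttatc
The Pou3f3 and Foxd1 stretches lie between genes, those of Sfrp1, Fgf10, Pax7 and Zfhx3 in introns of these genes, that of Foxf1 in an intron of Gm20388 and that of Pax3 upstream of the gene, in a region whose near edge is 2.88 kb from the start. The Sfrp1 stretch holds TAATTA at 2 places, and the Fgf10, Pax3 and Zfhx3 stretches each hold the E-box at 2. The Pax7 stretch holds none of the 3 sequences. Since the stretches were placed on matches, their number says nothing of enrichment: in the middle 150 bases of distal regions the E-box occurred in 13.3% of medial-only, 14.9% of lateral-only and 15.6% of shared regions.

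A pair of promoters is shown too, as the 250 bases upstream of the RefSeq start, with the GC box GGGCGG in capitals. The promoter of Pou3f3 had a peak in the medial plate alone and that of Fgf10 in both.
Pou3f3, chr1:42695518-42695767, plus strand: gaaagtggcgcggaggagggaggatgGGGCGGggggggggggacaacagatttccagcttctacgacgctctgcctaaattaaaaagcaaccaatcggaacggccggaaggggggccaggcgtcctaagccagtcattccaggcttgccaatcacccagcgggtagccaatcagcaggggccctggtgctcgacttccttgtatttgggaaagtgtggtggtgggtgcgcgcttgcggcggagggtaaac
Fgf10, chr13:118714449-118714698, plus strand: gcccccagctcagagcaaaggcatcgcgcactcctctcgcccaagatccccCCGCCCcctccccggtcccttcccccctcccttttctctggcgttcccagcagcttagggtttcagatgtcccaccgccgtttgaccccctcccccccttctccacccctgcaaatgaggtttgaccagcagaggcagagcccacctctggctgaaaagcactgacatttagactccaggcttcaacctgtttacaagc
Each holds 1 GC box, and 32.7% of all 32851 RefSeq promoter entries hold at least 1 over the same 250 bases.

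Most promoters marked in 1 plate were marked in the other, whereas most distal regions were not listed in both. A region was called proximal when it lay within 1 kb of any annotated transcript start and distal otherwise. Of 11673 proximal regions, 8781 were shared (75.2%, 95% interval 74.4 to 76.0), 1329 were medial-only and 1563 lateral-only, or 11.4 and 13.4 percent. Of 15489 distal regions, 5316 were shared (34.3%, 33.6 to 35.1), 4714 were medial-only and 5459 lateral-only, or 30.4 and 35.2 percent. The order of the plates in distal one-sided regions turned with equal numbers of peaks (4863 medial-only and 4686 lateral-only) and with the top 10000 peaks of each list (1176 and 976). The lists covered 35.7 Mb in the medial and 33.6 Mb in the lateral plate, of which 24.1 Mb was common, 67.5% of the medial and 71.7% of the lateral bases. Of 21911 protein-coding genes, 8597 had a peak within 1 kb of a start in both plates, 773 in the medial plate only and 951 in the lateral plate only.

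The one-sided regions were mostly short and weak. Medial-only distal regions had a median width of 802 bp and lateral-only ones of 637 bp, against 2140 bp for shared distal regions. Their median −log10 q was 1.69 in either class, close to the floor of 1.3 at which the lists end, and only 64 medial-only and 55 lateral-only distal regions reached 5. Whether a distal region was shared followed the strength of its peaks closely. Regions were binned by the highest −log10 q of a plate's peaks in them. Of distal regions with medial peaks at 1.3 to 2, 28.3% also held a lateral peak, of those from 3 to 5 it was 77.0% and of those at 10 or more 99.5%. The shares for distal regions binned by their lateral peaks were 77.0% and 99.6% in the second and last of these bins. At −log10 q of 10 or more, 3 of 569 distal regions with medial peaks and 2 of 543 with lateral peaks had no peak of the other plate. At promoters it was 0 of 2520 and 1 of 2760 regions. A region without a listed peak can still hold signal, so these classes describe which plate's list holds a region, not where the mark is absent.

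A few one-sided regions were strong. The medial-only distal region with the highest −log10 q lay over Muc15 and Ano3 at chr2:110737158-110737970 (10.4, 6.69-fold over input), and none of 5 other lists of e11.5 and e13.5 face tissue had a peak there. Next came regions 47.3 kb from the start of Sulf1 and 41.8 kb from that of Tfpi, a clotting inhibitor. Sulf1 and Sulf2 encode the extracellular heparan sulfate endosulfatases, which trim the sugar chains that bind growth factors, and both were among the 10 nearest genes: the Sulf2 region, chr2:166175002-166177056, had −log10 q of 7.46 over 2055 bp. The rest lay in or near Crtam, Aadat, Tiam2, Rflna, Auts2 and Gfod1. The 10 ranged from 586 to 2394 bp, and 8 of them had a peak in the e13.5 nose.

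The lateral-only distal regions at the top of the ranking were 70.8 kb from the start of Foxk1 (chr5:142329502-142330692, −log10 q 12.1) and 47.2 kb from that of Chmp2b (chr16:65609951-65611085, 11.6). Others lay in introns of Zfp746, Ablim1, Mrap and Zbtb16, a zinc-finger factor of limb and axial patterning, in an intron of Gm20388 near Rab4a, and between genes near Ostc, Neurl1b and, at 593 kb, Akr1e1. They ranged from 444 to 1887 bp, and 7 of the 10 had a peak in the e13.5 nose, while those at Ablim1, Mrap and Rab4a had none in any of the 5 other lists. The patterning genes named below were therefore not at the top of this ranking: their one-sided distal regions had lower −log10 q.

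One-sided promoters with high −log10 q included patterning genes on the medial side. The strongest medial-only promoter region was that of Foxf1, a forkhead factor of mesenchyme and a known Hedgehog target (chr8:121081504-121084115, 2612 bp, −log10 q 9.31). Pou3f3, a POU homeobox factor, followed with a 13501 bp domain (chr1:42683416-42696916, 8.44). The other 3 of the first 5 lay at a transcript start 187 kb from Cxcl12, at Megf6 and at Stard13. The strongest lateral-only promoter regions were shorter, from 407 to 1760 bp, and lay at transcript starts in or near Shoc2, Neurl1a, Apoo, Tmem231 and Chaf1a. All 10 of these promoter regions had a peak in the e13.5 nose. That list also had a peak at 65.6% of all medial-only and 68.1% of all lateral-only proximal regions. Among those with −log10 q of at least 3 the shares were 83.6% and 87.7%, so the 10 do not stand out.

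Pou3f3 was the locus with the largest excess of medial peak bp, a gene picked after its values were seen. Summed over the regions nearest to its start, peaks covered 36059 bp in the medial plate and 1074 bp in the lateral plate, where 2 peaks of 843 and 231 bp were listed. Besides the promoter domain, medial-only regions of 5339, 4531, 2198 and 3517 bp followed one another downstream, and others of 3390 and 2547 bp stood 56.9 and 74.7 kb from the start. The e13.5 nose had 35931 bp of peaks at Pou3f3. The maxillary process had 9611 bp at e11.5 and 12084 bp at e13.5, and no peak was assigned to the gene in the mandibular process at either stage.

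Pax7 showed the reverse. Pax7 is a paired homeobox factor of the neural crest and of the nasal mesenchyme. Its promoter lay in the shared proximal region with the largest lateral excess of width (chr4:139819172-139839403): 2579 bp in the medial plate, as 2 separate peaks, and 20232 bp as 1 unbroken domain in the lateral plate. With the 3 lateral-only and 2 other shared distal regions the locus held 4853 bp of medial and 28721 bp of lateral peaks, 5.92 times as many. No peak was assigned to it in the mandibular or maxillary process at either stage, and 17636 bp were in the e13.5 nose. Its paralogue Pax3 went the same way by less, with 14241 bp medial and 26197 bp lateral, a ratio of 1.84, and 2 lateral-only distal regions of 4158 and 2966 bp upstream of the gene.

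**Figure D1:**
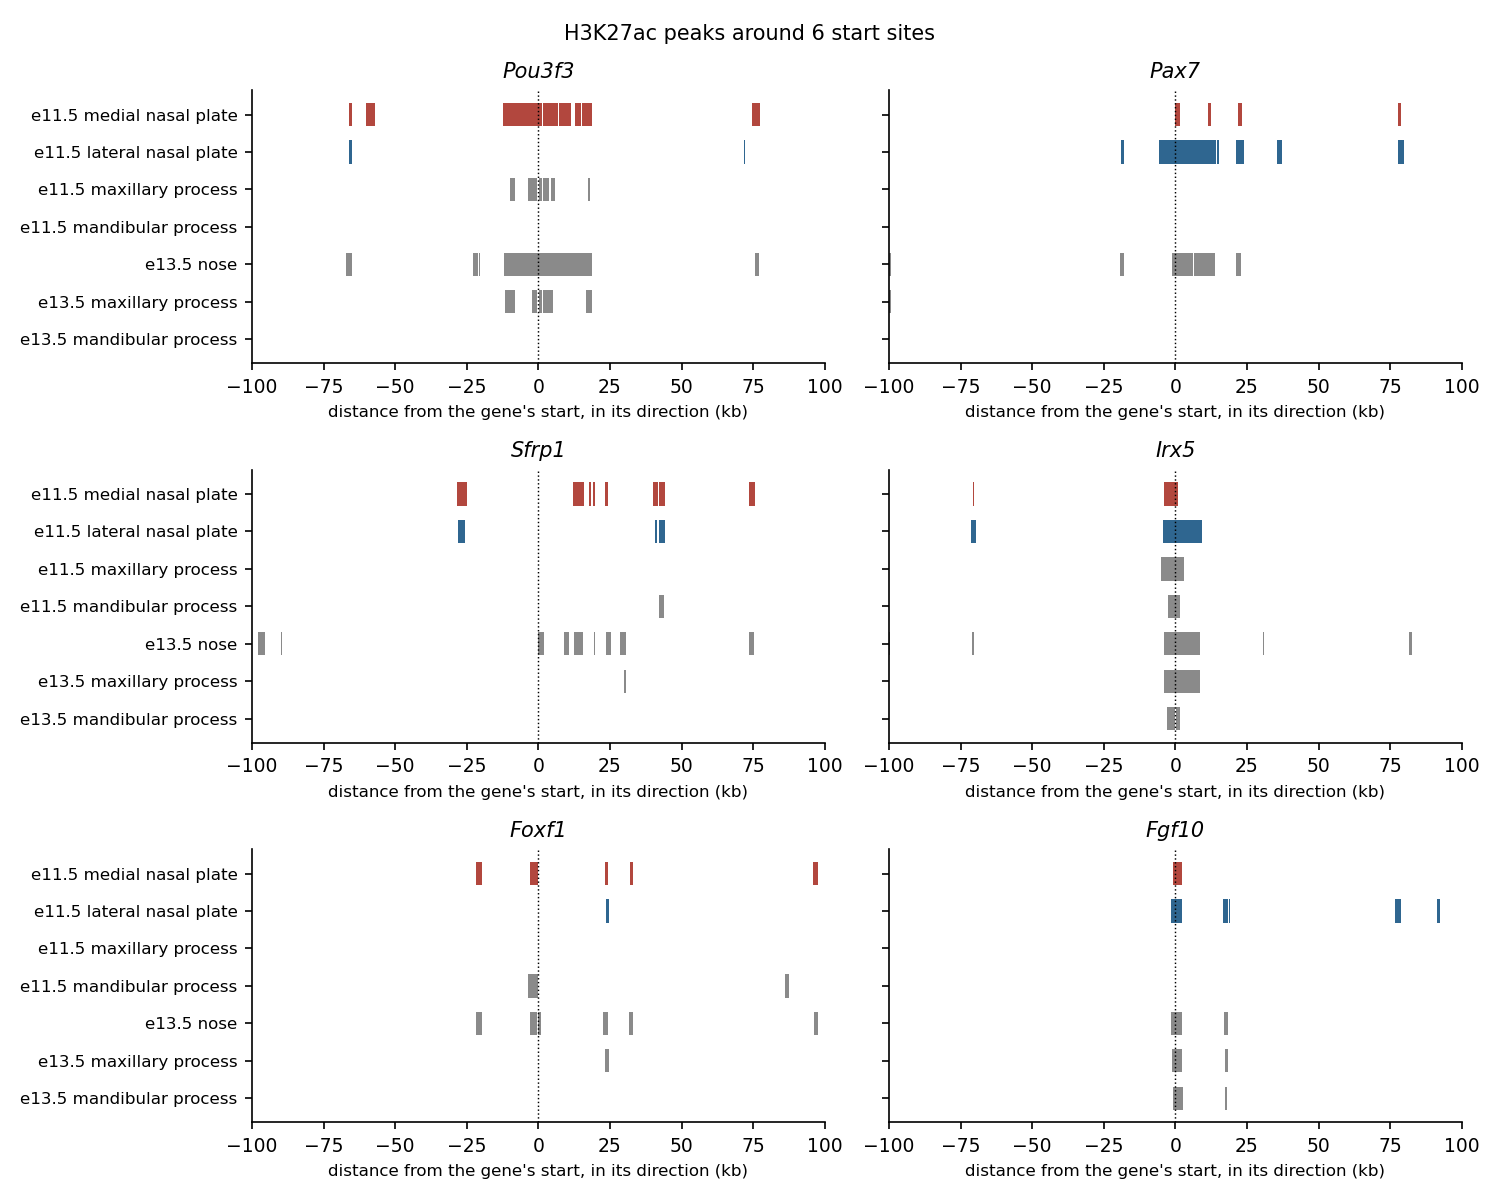
H3K27ac peaks within 100 kb of the RefSeq start of 6 genes, drawn as bars along the distance from the start in the gene's direction, for the medial plate (red), the lateral plate (blue) and 5 other libraries (grey). Pou3f3, Sfrp1 and Foxf1 have more or wider peaks in the medial plate, and Pax7, Irx5 and Fgf10 in the lateral plate.

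Genes were then compared by the peak bp assigned to the nearest protein-coding start within 100 kb. A gene was called when 1 plate had at least 2 times the bp of the other and at least 2000 bp. Of 12421 genes with a peak, 608 were called medial (4.89 percent) and 368 lateral (2.96 percent). After dividing by each list's total peak bp, an alternative added after the data were seen, the calls were 487 medial and 423 lateral. With equal numbers of peaks they were 665 and 323. The lists of genes for facial patterning, signalling and cell types held 217 genes with a peak, of which 21 were called medial and 11 lateral, 9.68 and 5.07 percent. The lists were chosen with earlier results of these data known, and these shares are a description. Tbx3, with 34463 against 17579 bp, fell just short of the call, and Sox9, with 6629 against 3207 bp, just passed it. Other settings of the peak lists and of the assignment to genes were followed for 35 called genes, the called list genes with Pou3f3, Irx5 and Zfhx3. Among these Otx2, Tal1, Sox10, Barx1 and Egfl7 changed direction under at least 1 setting. Calls were kept by 24 at −log10 q of at least 2, by 32 with equal numbers of peaks, by 10 with the top 10000 peaks and by 21 with starts within 10 kb.

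Among 10 frontonasal homeobox and paired factors, all with peaks, 1 was called in each direction, with Pax7 the lateral one. Six2, a homeobox factor of craniofacial mesenchyme, had 22229 and 12913 bp and was not called. The homeobox genes Alx1 (21138 and 20077 bp) and Alx4 (27316 and 29797 bp) and Msx1 (21271 and 17384 bp) were covered about alike.

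Of 18 retinoic acid pathway genes, 17 had peaks, none was called medial and 2 were called lateral. Dhrs3, which reduces retinaldehyde and so lowers retinoic acid, had no peak assigned to it in the medial list and 3986 bp in the lateral one. Rxrg, a retinoid receptor, had 0 and 2657 bp, and lost its call at −log10 q of at least 2, with equal numbers of peaks, with the top 10000 peaks and with starts within 10 kb. Cyp26a1, an enzyme that degrades retinoic acid, had 0 and 1555 bp, under the minimum for a call. The binding protein Crabp1 leaned to the medial plate, with 18611 and 10021 bp.

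In the FGF pathway 16 of 19 genes had peaks and Fgf10 alone was called. Fgf10, a ligand made by mesenchyme that signals to epithelium, had 3105 bp of medial and 8939 bp of lateral peaks. Its promoter was marked in both plates, over 3105 and 3969 bp, and 4 lateral-only distal regions stood at 16.7, 18.7, 76.7 and 91.3 kb from the start. That at 16.7 kb, shown above, had the highest −log10 q of them (5.11) and also overlapped a peak in all 3 of the e13.5 lists, and in neither process at e11.5. The receptor Fgfr2 had 27029 and 31364 bp, and the feedback targets Dusp6 (12896 and 9393 bp), Spry2 (7576 and 9497 bp) and Spry4 (9147 and 8286 bp) were not called.

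Of 16 Hedgehog pathway genes, 13 had peaks and the 3 called were all medial, all forkhead factors and all without a lateral peak assigned to them. A lateral peak 23.5 kb from the Foxf1 start, where the medial plate also had a peak, went to another gene with a nearer start. Foxf2 lost its call at −log10 q of at least 2 and with the top 10000 peaks, and Foxd1 with the top 10000 peaks. Foxd1 had 7304 bp, Foxf1 4558 bp and Foxf2 3028 bp in the medial plate. The pathway's own parts were covered more evenly: the receptor Ptch1 had 14265 and 9243 bp, the transducer Smo 2961 and 2643 bp, and the factors Gli1 4027 and 3858 bp, Gli2 18628 and 16340 bp, and Gli3 4292 and 7329 bp. In the mandibular process at e11.5, Foxf1 had 3309 bp and Foxf2 3387 bp, and Foxd1 none. No peak was assigned to the ligand Shh in either plate.

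The WNT and BMP lists held 1 called gene each, medial in both. Over all genes with a peak, 4.89 percent were called medial. In the WNT list 19 of 23 genes had peaks and 1 was called, Sfrp1, an antagonist, with 16036 and 5213 bp. Its medial excess was distal: 5 medial-only regions, 4 of them within 12.0 to 23.2 kb of the start in its introns. These regions had −log10 q of at most 2.80, and the promoter had no peak in either plate. Sfrp1 lost its call with the top 10000 peaks and with starts within 10 kb. The WNT effector Lef1 (6757 and 12231 bp) and the feedback regulator Nkd1 (7211 and 12759 bp) leaned to the lateral plate, and Tcf7l2 (24575 and 14112 bp) to the medial plate, all uncalled. In the BMP list 14 of 16 genes had peaks and 1 was called, the antagonist Nog, with 6177 and 2749 bp and a promoter peak in the medial plate only. Nog lost its call with the top 10000 peaks and when every region within 100 kb was counted. Other antagonists of the 2 lists were not called: Sfrp2 (8891 and 5174 bp), Dkk2 (3673 and 3408 bp) and Chrd (1360 and 2292 bp).

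Dlx homeobox genes, which pattern the jaws, had few peaks in the nasal plates, and the 3 of 6 genes with any had more bp in the medial plate. Dlx5 had 4811 bp and Dlx6 5834 bp there, against 0 and 399 bp in the lateral plate. In the e11.5 mandibular process they had 10091 and 14611 bp, and in the maxillary process 0.

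Of 18 nasal placode and olfactory factors, 14 had peaks. Sox2 (10938 and 3393 bp) and Otx2 (4223 and 299 bp), both factors of placodes and brain, were called medial, and Ebf2 (876 and 4061 bp), a factor of olfactory neurons and other cells, lateral. The placode factor Eya1 (18090 and 12737 bp) was not called. Among 21 maxillary and palate factors, 15 with peaks, Shox2 was called medial (5687 and 824 bp) and Lhx8 (2528 and 7461 bp) and Barx1 (1357 and 3019 bp) lateral. Lhx8 and Barx1 were also covered in the e11.5 maxillary process, by 10950 and 4031 bp, and in the e11.5 mandibular process, by 9366 and 5306 bp. Shox2 had no peak in either process. Barx1, Dlx5 and Dlx6 stand also in the list of 14 distal jaw and arch factors, of which 8 had peaks and Cited1 (2507 and 986 bp) was the other one called. None of 4 AP-2 factors with peaks was called, and Tfap2b had 20138 and 13444 bp.

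**Figure D2:**
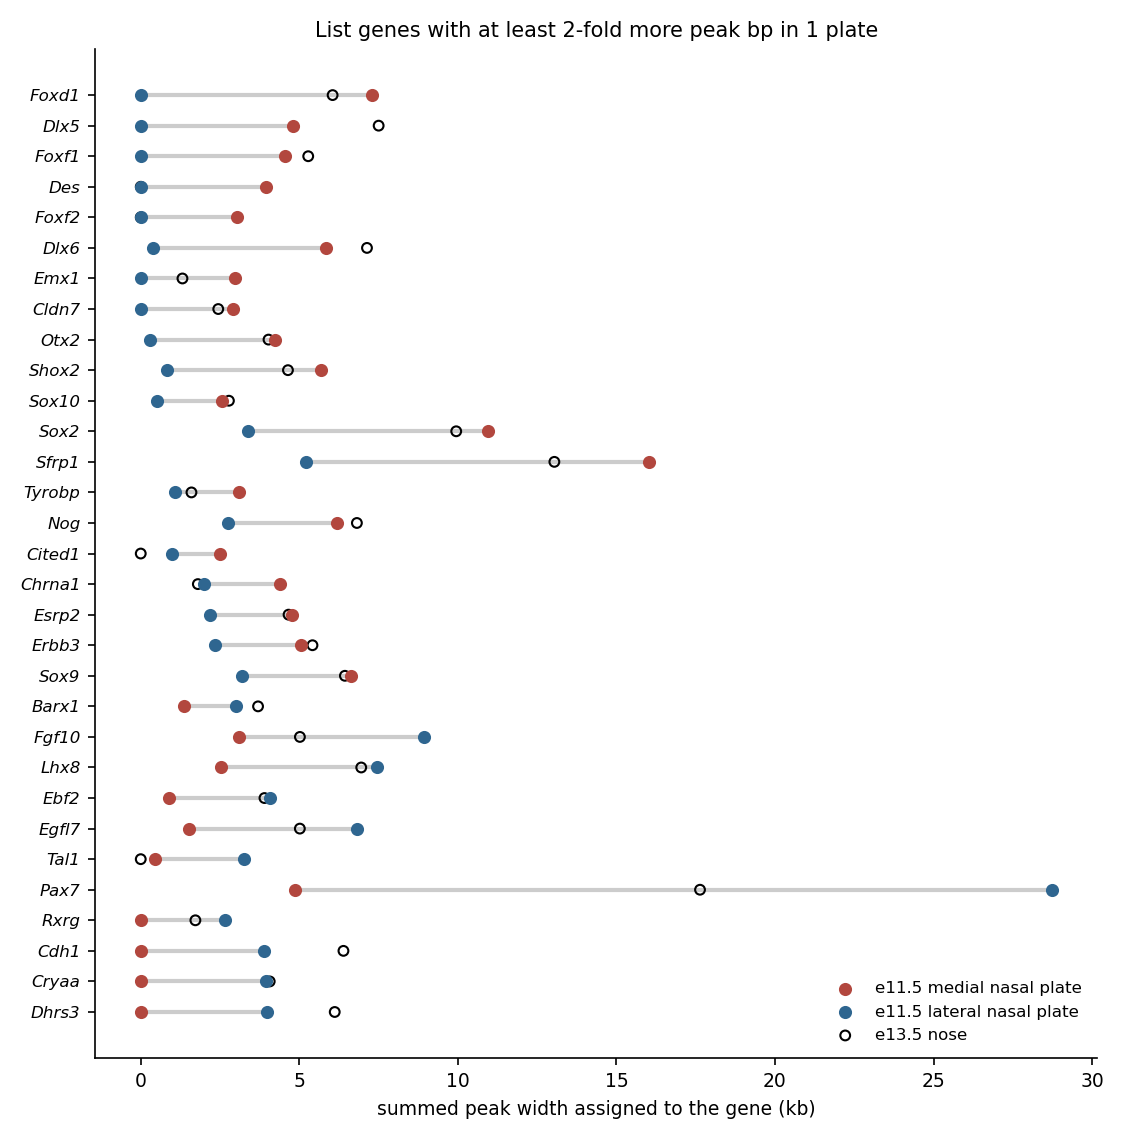
Summed width of the peaks assigned to the called list genes, in kb, for the medial plate (red), the lateral plate (blue) and the e13.5 nose (open circles). The genes at the top were called medial and the 11 at the bottom lateral, with Pax7 the longest span at 4853 against 28721 bp.

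Markers of cell types were examined since both plates hold mixed cells. All 15 regulators of facial mesenchyme had a peak in at least 1 plate, 12 had a promoter peak in both, and Sox9, of cartilage and neural crest, was the only one called. Surface epithelium markers had summed peak bp of 37244 medial and 35694 lateral over 17 of 19 genes. Of them Cldn7 (2904 and 0 bp) and Esrp2 (4758 and 2176 bp) were called medial and Cdh1 (0 and 3888 bp) lateral. Each lost its call with the top 10000 peaks, and Cldn7 and Cdh1 also at −log10 q of at least 2. The remaining 14 were not called, and of the 17 genes 8 had more bp medially and 9 laterally. Endothelium markers summed to 43476 and 52582 bp over 12 of 14 genes, with Egfl7 (1518 and 6830 bp) and Tal1 (464 and 3268 bp) called lateral. Egfl7 and Tal1, which made up most of the lateral excess, both changed direction under at least 1 other setting. Of the 12 genes, 5 had more bp medially and 7 laterally. Glia and melanoblast markers summed to 15605 and 7663 bp, with Sox10 (2561 and 525 bp) and Erbb3 (5062 and 2335 bp) called medial.

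Markers of other tissues had peaks in part. Of 9 skeletal muscle markers 4 had peaks, Myf5 and Myod1 none, and Des (3934 and 0 bp) and Chrna1 (4396 and 1984 bp) were called medial. Of 12 forebrain markers 4 had peaks and Emx1 (2979 and 0 bp) was called medial, of 12 eye markers 6 and Cryaa (0 and 3959 bp) was called lateral, and of 8 macrophage markers 2 and Tyrobp (3088 and 1091 bp) was called medial. Of 9 erythroid markers 6 had peaks (10188 and 8047 bp) and none was called. No peak was assigned to the eye gene Rax in either plate. The part of differing cell shares in the calls above was not tested. None of 14 housekeeping genes with a peak was called, with a median log2 ratio of bp (after adding 500 bp to each) of 0.08, against 0.05 over all genes. The Y-linked gene Uty had peaks in both plates, of 891 and 810 bp.

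Beyond the lists, some genes gathered several one-sided distal regions. On the medial side Srbd1 had 7 medial-only against 0 lateral-only distal regions and Nav2 had 7 against 1. Zfp423, a zinc-finger factor, had 10 against 3, Lrrc8d 7 against 2, and Cdkal1 and Sertad2 6 against 1 each. Usp29, Wwp2, Sfrp1 and Sulf1 had 5 against 0 each. All of these genes but Zfp423 (27933 and 19311 bp), Sertad2 (22976 and 15015 bp) and Sulf1 (18468 and 11761 bp) passed the 2-fold call. Only Sfrp1 among them was followed under other settings. At Wwp2, a ubiquitin ligase gene, peaks covered 25292 and 10928 bp, with medial-only intronic regions on both sides of a shared one that was strong in either list. At Igdcc3, named after its values were seen, 17071 and 5342 bp were covered, with 4 medial-only regions in its introns.

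On the lateral side Zfhx3, a zinc-finger homeobox factor, had the most one-sided distal regions, 10 against 1, with 32052 bp of medial and 67905 bp of lateral peaks. Around its main promoter the domain measured 14725 bp medially and 24522 bp laterally (chr8:108695165-108719686), the widest single peak of either list. Itpr2, a calcium-release channel, was assigned 7 lateral-only distal regions, no other region and no medial peak, with 8042 bp in all. Prex1, Adk and Magi1 each had 7 against 0, Tenm3 7 against 1, and Ccbe1, a gene of lymphatic development, Gtdc1, Zfp36l2 and Dapk1 6 against 0 each. Of these 10 genes, Zfhx3, Itpr2, Ccbe1 and Gtdc1 passed the 2-fold call. Zfhx3 lost it with equal numbers of peaks (log2 ratio −0.95) and with the top 10000 peaks (−0.82), and the other three were not followed under other settings.

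Shared regions were slightly wider in the medial plate, where the width in a plate is the summed bp of its peaks in the region. The median width of shared distal regions was 1868 bp medially and 1720 bp laterally, with a median log2 ratio per region of 0.10 (interquartile range −0.21 to 0.46), and of shared proximal regions 1800 and 1715 bp, with 0.08 (−0.17 to 0.35). Of shared distal regions 58.3% and of proximal ones 58.5% were wider medially. Regions at least 2-fold wider were few: 449 distal ones medially and 204 laterally (8.45 and 3.84 percent), and 358 and 164 proximal ones (4.08 and 1.87 percent). Widths followed each other across regions, with a Spearman correlation of 0.67 for distal and 0.79 for proximal regions, in which both lists share the genome sequence and the peak caller.

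**Figure D3:**
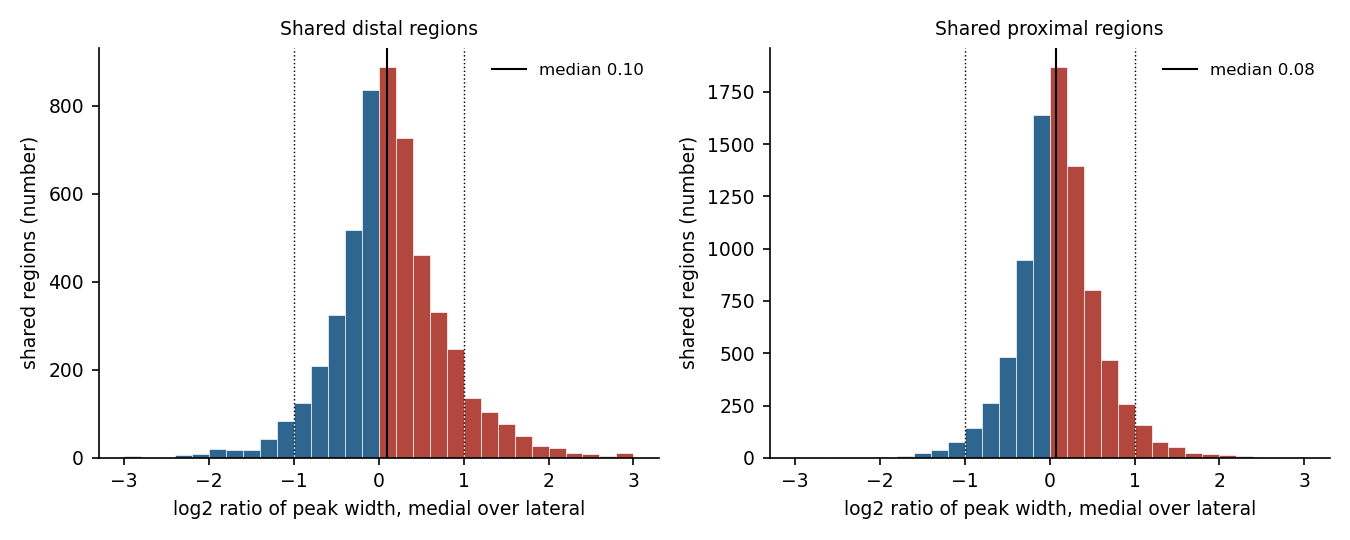
Number of shared regions by the log2 ratio of peak width, medial over lateral, in bins of 0.2 with all larger ratios in the end bins, for distal (left) and proximal (right) regions. The solid line is the median (0.10 and 0.08), dotted lines mark 2-fold, and red and blue bins lie above and below 0.

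Shared regions with at least 500 bp in both plates were then ranked by the ratio of their widths. The largest medial ratio among proximal ones was at Shox2, whose start lies beside the gene Rsrc1 (5687 against 824 bp, chr3:66977974-66983660). Next came one at a transcript start 72.6 kb from Mcm9 (3342 against 518 bp) and that of Ehd1 (3359 against 528 bp). Those of Wfikkn1, an inhibitor of myostatin-type ligands (2968 against 502 bp), and Lrrc1 (2853 against 557 bp) followed. On the lateral side Pax7 was first, then Igf2r, the clearance receptor of insulin-like growth factor (517 against 2460 bp), Efnb2, a ligand of Eph receptors (2027 against 6862 bp), Aspg (660 against 2196 bp) and P3h2 (934 against 3050 bp). Among shared distal regions the medial extreme was a region at Abcg8 (3346 against 523 bp), with others in Fam102a near Dpm2, in Rad51b, in Foxp1 and near Zhx2. The lateral extreme was one in Hacd2, nearest to Adcy5 (1092 against 5281 bp), with others in Lnpep, in Ryr2, near Npvf and in Ccdc6.

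Most domains with at least 10 kb of peaks in 1 plate had as much in both. Peaks of a region were summed within each plate, so a domain can hold several peaks. Of 52 such regions, 35 had at least 10 kb in both plates, 10 in the medial plate alone and 7 in the lateral plate alone. Single peaks of at least 10 kb numbered 37 in the medial and 34 in the lateral list. Domains with nearly equal widths covered the facial regulators Alx1 (17984 and 18937 bp), Alx4 (14129 and 14440 bp), Msx1 (12702 and 13064 bp), Twist1 (14656 and 15004 bp), Tfap2a (12414 and 12807 bp), Tbx2 (16968 and 17204 bp) and Wnt5a (14850 and 14496 bp). Where only 1 plate passed 10 kb, most domains were close to that width in the other, as at Dusp6 (10032 and 9038 bp) and Prrx1 (8313 and 10267 bp). The wider departures were Pou3f3, Eya1 (10637 and 6684 bp), Ahdc1 (15155 and 8415 bp), Foxc1 (10504 and 7613 bp) and a second Tbx3 domain (10820 and 6440 bp) on the medial side, and Pax7 and Irx5 on the lateral side. Irx5, an Iroquois homeobox factor, had 4786 bp medially and 13917 bp laterally (chr8:92353343-92367259). Nr2f2, a nuclear receptor, passed 10 kb in both with 21465 and 13844 bp.

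Libraries that had no part in choosing the regions were then read at the one-sided distal regions. A peak of the e13.5 nose, the tissue that both plates contribute to, overlapped 32.5% (31.2 to 33.9) of medial-only and 28.1% (26.9 to 29.4) of lateral-only distal regions, against 80.6% of shared ones. Among the stronger one-sided regions, those with −log10 q of at least 3, the shares were 62.0% (57.2 to 66.5) of 439 medial-only and 53.3% (48.5 to 58.0) of 441 lateral-only regions. The mandibular and maxillary lists reached few of them: between 1.74% and 3.46% of one-sided distal regions had a peak in either process at e11.5 or in the e13.5 mandibular process. The e13.5 maxillary process had a peak at 2.02% (1.63 to 2.46) of medial-only and 3.35% (2.89 to 3.86) of lateral-only distal regions. These lists differ in size, with 6571 peaks for the maxillary process at e11.5 and 25941 for the nose at e13.5, and a shorter list can reach fewer regions. In none of the 5 lists was a peak found at 65.1% of medial-only and 69.1% of lateral-only distal regions, against 16.2% of shared ones.

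**Figure D4:**
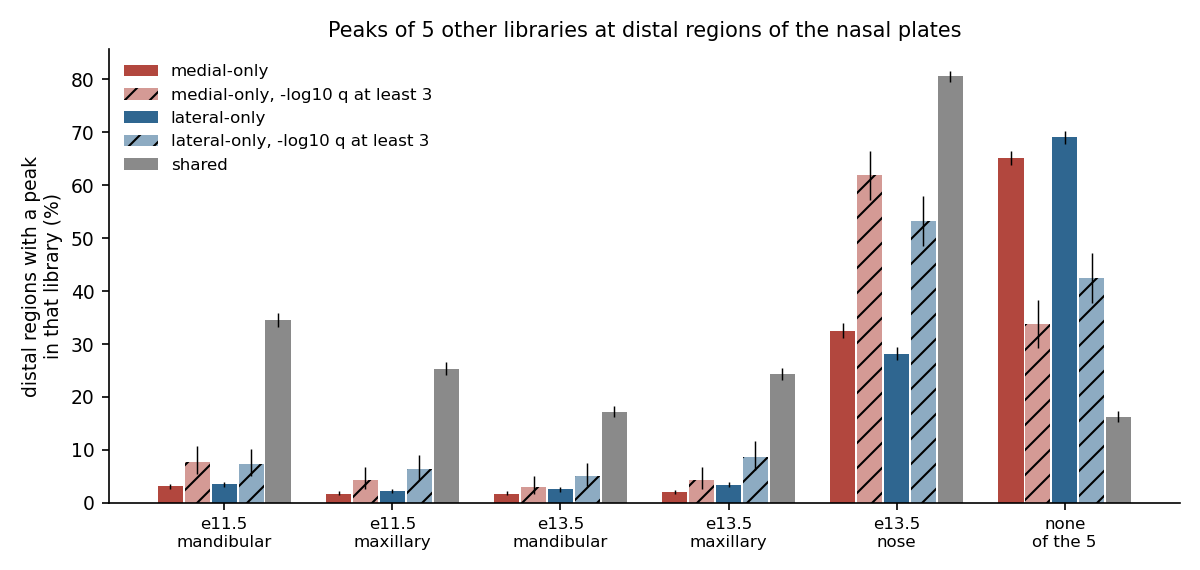
Percent of distal regions of each class with a peak in each of 5 other libraries, or in none of them, with exact 95% intervals. Hatched bars are one-sided regions with −log10 q of at least 3. The e13.5 nose overlaps 62.0% of strong medial-only and 53.3% of strong lateral-only regions, above every mandibular or maxillary list.

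Base composition was alike in the one-sided distal regions of both plates, and shared regions were richer in GC. In the middle 500 bases, the median GC content was 46.8% in both one-sided distal classes and 48.6% in shared ones. At proximal regions it was 53.6% in medial-only, 55.2% in lateral-only and 60.2% in shared regions. The GC box GGGCGG was present in 9.72% of medial-only and 10.4% of lateral-only distal regions against 16.8% of shared ones, and in 39.9%, 45.0% and 63.4% of proximal regions. Of 21 consensus sequences searched on both strands, the largest distal excess in the medial-only class was for TAATTA, the homeodomain core, found in 13.9% (12.9 to 14.9) of medial-only, 11.49% (10.7 to 12.4) of lateral-only and 12.0% (11.2 to 12.9) of shared regions. In one-sided distal regions with −log10 q of at least 3 the shares of TAATTA were 11.6% and 10.9%. The SOX sequence ACAATG was found in 26.0% (24.8 to 27.3) of medial-only and 24.0% (22.9 to 25.2) of lateral-only distal regions. At −log10 q of at least 3 its shares were 28.9% of 439 and 21.5% of 441 regions, a wider gap than that of TAATTA. At proximal regions the order of the SOX shares was reversed, with 14.9% of medial-only and 17.3% of lateral-only regions. Among proximal regions with −log10 q of at least 3 they were 16.4% and 20%. The largest distal excess in the lateral-only class was for the nuclear receptor half-site AGGTCA, at 27.9% (26.7 to 29.1) against 26.3% of medial-only regions. At −log10 q of at least 3 it was 25.9% against 25.3%. The Twist-type E-box was found in 40.0% and 40.9%.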

How the data were processed

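H3K27ac was immunoprecipitated from sonicated, crosslinked chromatin of dissected face tissue and made into TruSeq libraries. For the build mm10 the submitters' processing notes list MACS2 2.2.4, BWA 0.7.7 and SAMtools 0.1.19, with no settings. The deposited broad peak lists hold, for each peak, a score, a fold enrichment (ratio over input) and −log10 of the p-value and q-value, called by the authors per library. The score was 10 times −log10 q rounded down in nearly all peaks, and no peak was under 1.3. Peak numbers in the deposited names ran to 453706 (medial) and 326106 (lateral), so longer lists had been filtered. q-values and fold enrichments were used within a list only. A wider or additional peak can follow depth as well as tissue.

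The 5 peaks outside the autosomes, X and Y were removed. The last peak ended within the GRCm38 sequence on all 21 chromosomes. Overlapping peaks were merged, and a region counted for a library with at least 1 bp of peak. Transcript starts (132629) and 21911 protein-coding genes came from GENCODE vM21, and each region went to the nearest protein-coding start within 100 kb, which need not be its target. Log2 ratios of gene bp used a pseudocount of 500 bp. Since each plate had 1 library, no test was run. Members, gene lists (22) and consensus sequences were chosen with earlier results of these data known. Named were the one-sided regions with the highest −log10 q (10 distal and 5 proximal per plate), the 5 shared regions per direction and kind with the largest width ratio and at least 500 bp in both, the 10 genes per direction with the largest difference in one-sided distal regions, called list genes and up to 4 others per list. Further genes, among them Pou3f3, Irx5, Igdcc3, the wide domains and the relatives and pathway parts given for contrast, were picked once their values had been seen. Input samples were not analysed here, and values of a few genes counted in the lists are not reported here. Alternatives were a higher −log10 q, equal numbers of peaks, the top 10000 peaks, other merging, overlap, promoter and assignment windows, scaling by list length and a minimum peak width. The e15.5 libraries were left out because their labels and peak names give different regions. Computation used scipy 1.17.1, pandas 2.3.3 and numpy 2.4.6 under Python 3.11.15, with plots from matplotlib 3.10.9, and the procedures were tested on simulated lists with planted one-sided regions and widths.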

Additional observations from a re-analysis of the deposited data

How the results depend on the processing

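Stricter lists lowered the one-sided counts and raised the shared share. At −log10 q of at least 2, 2170 medial-only and 2400 lateral-only distal regions were left, and 42.4% of distal and 77.1% of proximal regions were shared. With the top 10000 peaks of each list there were 1176 and 976 distal and 785 and 942 proximal one-sided regions, 48.4% and 77.4% were shared, and the median log2 width ratio of shared distal regions was 0.069. The order of the plates in one-sided distal regions thus turned. With equal numbers of peaks, 35.1% of distal regions were shared and the order turned too (4863 and 4686). Merging peaks up to 1 kb apart gave 35.6% and 77.4% shared, a promoter window of 2.5 kb 70.5% of proximal regions, and, added after seeing the data, peaks of at least 500 bp only gave 3307 lateral-only distal regions with 43.4% and 78.2% shared. With starts within 10 kb, 400 genes were called medial and 241 lateral. Requiring 50% overlap gave 34.02% and 75.01% shared.

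Of the 35 called genes that were followed (called list genes, Pou3f3, Irx5 and Zfhx3), 7 kept it under every alternative, among them Dlx5, Foxf1 and Pou3f3 medial, and Pax7, Lhx8 and Irx5 lateral. With the top 10000 peaks 10 kept it. The log2 ratio turned sign for Otx2 (−0.68) and Tal1 (0.95) at −log10 q of at least 2, for Tal1 with equal numbers of peaks (0.95), for Sox10 with the top 10000 peaks (−1.04), and for Barx1 (0.65) and Egfl7 (0.076) when every region within 100 kb was counted; the cause was not tested. No paired analysis was possible because each plate had 1 library.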

Other observations

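Medial-only and lateral-only distal regions were alike in where they lay. Of medial-only regions 46.6% and of lateral-only regions 44.3% lay in introns, against 36.8% of shared distal regions, and 46.5% and 48.0% lay between genes. Their median distance from a transcript start was 13.7 and 13.45 kb, and 12.8 kb for shared ones.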
